A study of Homo sapiens with 4 samples.

Results

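The 9 genes described here are KISS1, NME1, NME2, BRMS1, CD82, NDRG1, PEBP1, MAP2K4 and RECK, which are known as metastasis suppressors. They were chosen by name from the 20804 genes of the table, and each was listed once. A metastasis suppressor is a gene whose product lowers the spread of tumour cells to distant organs with little effect on the growth of the primary tumour. The proteins act at different points. Kisspeptins are secreted ligands, CD82 and RECK sit in the cell membrane, PEBP1 and MAP2K4 belong to MAP kinase cascades, BRMS1 is part of a corepressor complex in the nucleus, NME1 and NME2 are nucleoside diphosphate kinases, and NDRG1 is a cytoplasmic protein induced by hypoxia and stress. Most were found through genes lost or silenced in metastatic breast, prostate or melanoma cells.

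RNA was sequenced from MDA-MB-231, an established human line of triple-negative breast cancer that forms metastases in mice. The wild type (WT) gave 2 libraries, and cells labelled as a miR-3662 knockout (KO) gave 2, with no other treatment named. CRISPR interference and activation appear in the title and sorting by microRNA activity in the design text, so how the KO cells were made, and whether they are 1 clone, is not settled by the labels. Nothing says that the libraries of a group came from separate cultures, so the spread between them may be technical. Of the line's mesenchymal markers VIM was at 1120 to 1321 FPKM and CD44 at 103.9 to 114. Among markers expected to be low, ESR1 and CDH1 were at 0.03 or less, ERBB2 was at 8.55 to 11.44, and EPCAM was at 1.08 and 1.15 in WT and at 0.34 and 0.05 in KO. Among markers of other cell types PTPRC was listed at 0 in all 4 libraries, while CD68, a lysosomal protein of macrophages and other cells, was at 30.2 and 39.03 FPKM in WT and at 67.7 and 117 in KO. In bulk RNA, fewer cells that express a gene and less of its RNA per cell cannot be told apart.

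The level of the mature microRNA was not analysed here. Its sequence is shown because its seed (bases 2 to 8, in capitals) is the stretch that pairs with target RNAs. It lies at chr6:134979355-134979378 on the minus strand (RefSeq, GRCh38.p14).
hsa-miR-3662: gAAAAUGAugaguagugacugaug

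Levels are FPKM, read fragments scaled to transcript length and library size, so that they can be set side by side between genes. Differences are KO minus WT in log2(FPKM + 1), a scale on which fold changes of weakly expressed genes come out too small. They come with a standard error from a limma fit across all 11786 genes that reached 1 FPKM in at least 2 libraries. All 9 genes did so in both groups. The list was drawn up with this comparison already known, so the differences of the 9 genes are given as a description with no p-value. In the fit 3 of the 9, KISS1, CD82 and NDRG1, lay past an adjusted p of 0.05, where 27.0% of all tested genes did (16.2% higher and 10.8% lower in KO). Of the called genes 59.9% were higher in KO, and 43.6% after scaling by the median of ratios. In 4 of the 9, these 3 and PEBP1, the KO libraries did not overlap the WT libraries, as in 68.0% of all tested genes (KO above WT in 39.3% and below in 28.7%). KISS1 and PEBP1 were the 2 below, and CD82 and NDRG1 the 2 above. Without the filter on low values CD82 alone of the 9 lay past the threshold, where 525 of 19833 genes did.

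**Figure D1:**
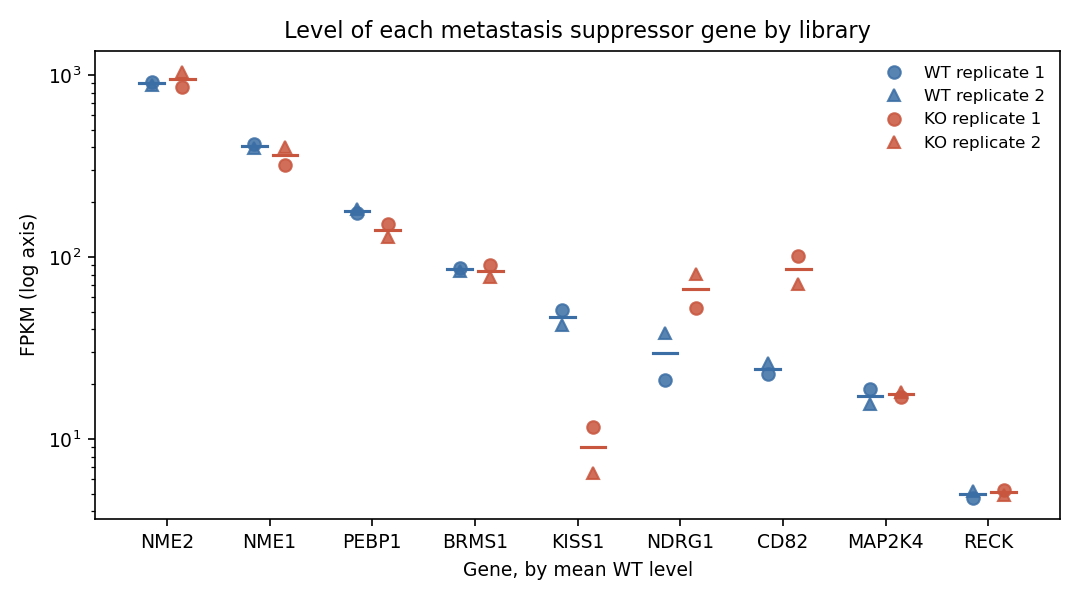
FPKM of each gene on a log axis in the 4 libraries, with points for libraries and bars for the mean of each group (n = 2). KISS1 is lower in both KO libraries (11.6 and 6.51) than in both WT libraries (51.1 and 42.4), CD82 and NDRG1 are higher in both, and BRMS1, MAP2K4, RECK, NME1 and NME2 overlap.

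KISS1 encodes the precursor that is cut into the kisspeptins, secreted peptides that bind the receptor KISS1R. The gene (identifier 3814) lies on chromosome 1 from 204190341 to 204196491 (GRCh38). The WT libraries had 51.1 and 42.4 FPKM, the KO libraries 11.6 and 6.51. Both KO libraries were far below both WT libraries, and the second KO library was the lowest. The mean was 46.8 ± 6.12 FPKM in WT and 9.05 ± 3.59 in KO (SD, n = 2 per group), 5.17-fold lower in KO. On the log2 scale the difference was -2.29 ± 0.24 (SE), which ranked 7 from the lowest among 11786 tested genes. It ranged from -2.66 without the first KO library to -1.92 without the second.

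The promoter of KISS1 is shown beside that of CD82 because these genes differed most between the groups, in opposite directions. Each window runs from 250 bases before to 50 bases after a gene start in a table of promoter windows (RefSeq, GRCh38.p14). That table held 8 of the 9 genes. The CD82 window lies wholly inside the gene's span given below, so its start is later than the first base of the gene, 44564409. Capitals mark the GC box (GGGCGG, the core letters bound by Sp1) and the TATA box (TATAAA), each searched on both strands.
KISS1, chr1:204196442-204196741, minus strand: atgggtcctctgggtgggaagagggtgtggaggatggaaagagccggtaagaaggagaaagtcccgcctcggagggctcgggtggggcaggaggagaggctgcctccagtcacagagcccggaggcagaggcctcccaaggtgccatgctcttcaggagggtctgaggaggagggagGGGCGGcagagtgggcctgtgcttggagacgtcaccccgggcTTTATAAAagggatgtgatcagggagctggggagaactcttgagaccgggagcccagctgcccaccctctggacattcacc
CD82, chr11:44565413-44565712, plus strand: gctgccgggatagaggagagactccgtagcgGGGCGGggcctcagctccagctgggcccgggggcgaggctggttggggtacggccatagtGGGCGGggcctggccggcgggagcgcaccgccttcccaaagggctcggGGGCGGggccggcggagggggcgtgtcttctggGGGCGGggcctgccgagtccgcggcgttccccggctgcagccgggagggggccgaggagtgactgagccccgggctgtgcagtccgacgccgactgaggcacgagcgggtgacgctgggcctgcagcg

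The KISS1 window held 1 GC box and 2 TATA matches, which overlap on opposite strands. The CD82 window held 4 GC boxes and no TATA match. Of the 35116 promoter windows in the table, 45.0% held a GC box and 11.5% a TATA match. The base composition differed as well, with 63.3% G and C in the KISS1 window and 76.7% in that of CD82, above 93.6% of windows or level with them. Such matches are letters only and were not tested for binding.

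The genes around KISS1 were a list of 17, all listed, of which 10 were tested. KISS1R, the receptor, was at 0.02 FPKM or less in every library. MED23, a Mediator subunit known to act upstream of KISS1, rose from 3.57 ± 0.46 to 6.17 ± 1.05 FPKM (log2 difference 0.65, adjusted p 0.0281 in limma). FURIN, a prohormone convertase that cuts kisspeptin precursor, fell from 52.6 ± 6.22 to 31.2 ± 3.22 FPKM (-0.74, adjusted p 0.00978). GNA11, a G protein of the class that KISS1R couples to, fell from 54.9 ± 1.17 to 36.8 ± 4.20 FPKM (-0.57, adjusted p 0.0164). These 3 were all that passed, 1 higher and 2 lower, which is 30.0% against 27.0% of all tested genes. The median difference of the 10 was -0.13 against 0.07 over all tested genes. MMP14, a membrane protease that cleaves kisspeptin, did not pass, with 75.7 and 89.04 FPKM in the WT libraries against 99.1 and 85.2 in KO (0.16, adjusted p 0.394). MED23 was not called without either WT library or without the second KO library (adjusted p 0.0571, 0.115 and 0.169), GNA11 in the same 3 cases (0.0872, 0.0693 and 0.0714) and FURIN when the second WT library was left out (0.0610). MED23 also failed after quantile normalization (0.0621).

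The 3 tested genes whose values over the 4 libraries were most like those of KISS1 were GATA2, ID3 and ENG. Likeness was the Euclidean distance between log2(FPKM + 1) values centred on each gene's mean, over 4 libraries. GATA2, a zinc finger transcription factor gene, was at a distance of 0.41, with 17.3 and 19.1 FPKM in WT and 4.09 and 2.84 in KO. ID3, which encodes an inhibitor of basic helix-loop-helix factors, was at 0.51, with 78.6 and 80.2 in WT and 26.4 and 17.4 in KO. ENG, the gene of the TGF-β co-receptor endoglin, was at 0.55, with 4.03 and 4.80 in WT and 0.23 and 0.12 in KO. The mean FPKM of ENG was 25.2-fold lower in KO, against 5.17-fold for KISS1, as adding 1 shrinks the change of low values. As in KISS1, the second KO library was the lowest in each of them, which picking genes by likeness over the same libraries favours.

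CD82 (KAI1) encodes a tetraspanin, a protein with 4 passes through the membrane that gathers integrins and growth factor receptors into patches. The gene (identifier 3732) lies on chromosome 11 from 44564409 to 44620358. It was at 22.6 and 26.03 FPKM in WT and at 101.8 and 70.6 in KO. Both KO libraries were well above both WT libraries, and the KO libraries differed by 1.44 times between themselves. The mean went from 24.3 ± 2.43 to 86.2 ± 22.01 FPKM (SD, n = 2), 3.54-fold higher in KO. The log2 difference was 1.76 ± 0.18 (SE) and ranked 60 from the highest, with a range of 1.504 to 2.02 as 1 library at a time was left out.

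KISS1 and CD82 changed places between the groups. The ratio of KISS1 to CD82 FPKM was 2.26 and 1.63 in the WT libraries and 0.114 and 0.0922 in the KO libraries. KISS1 was thus above CD82 in both WT libraries and below it in both KO libraries. These ratios restate the values of the 2 genes given above, which differ in opposite directions, and are no separate result.

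CD82 was not the only tetraspanin gene that was higher. Of 32 tetraspanin genes besides CD82, 17 were tested, and of these 9 rose and 1 fell. That is 58.8% against 27.0% of all tested genes, with a median log2 difference of 0.45 against 0.07. CD63, the tetraspanin of late endosomes and lysosomes, rose from 257 ± 41.3 to 564 ± 56.6 FPKM (1.13, adjusted p 0.00243 in limma), and TSPAN1 rose from 2.16 ± 0.085 to 7.19 ± 1.37 FPKM (1.36, adjusted p 0.00260). TSPAN14, a partner of the metalloprotease ADAM10, fell from 31.9 ± 2.49 to 12.9 ± 1.24 FPKM (-1.25, adjusted p 0.00190). CD9 rose from 124 ± 26.4 to 207 ± 1.36 FPKM (0.75, adjusted p 0.0119) and CD151, which binds laminin receptors, from 285 ± 33.1 to 390 ± 11.6 FPKM (0.45, adjusted p 0.0247), both picked after their values were seen. CD81 did not pass (219 ± 9.81 and 178 ± 25.2 FPKM, -0.30, adjusted p 0.109). Of 6 tested partners of CD82, the integrin gene ITGB1 rose (0.43, adjusted p 0.0335) and 0 fell, which is 16.7%. CD68, the lysosomal gene named above, moved in the same direction as CD63, and its part in the tetraspanin counts was not tested.

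The tetraspanin and partner counts depended on the filter and on single libraries, as did the counts over all tested genes. Together 10 of 23 rose and 1 fell, which is 47.8%. Without the filter on low values 0 rose and 1 fell, where 525 of 19833 genes passed. CD63 and TSPAN1 then lost their calls (adjusted p 0.0544 and 0.0509 in limma), as did most called genes of the other lists. Without the first WT library 2 rose, without the second 6, without the first KO library 3 and without the second 3, and after scaling by the median of ratios 7 rose and 2 fell. CD9 did not pass without the first WT library or the second KO library (adjusted p 0.0643 and 0.0510), and CD151 without the first WT library or either KO library (0.170, 0.0549 and 0.0869) or without the mean-variance trend (0.0523). CD81 fell past the threshold after scaling (-0.41, adjusted p 0.0473) and without the first KO library (-0.45, adjusted p 0.0459).

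**Figure D2:**
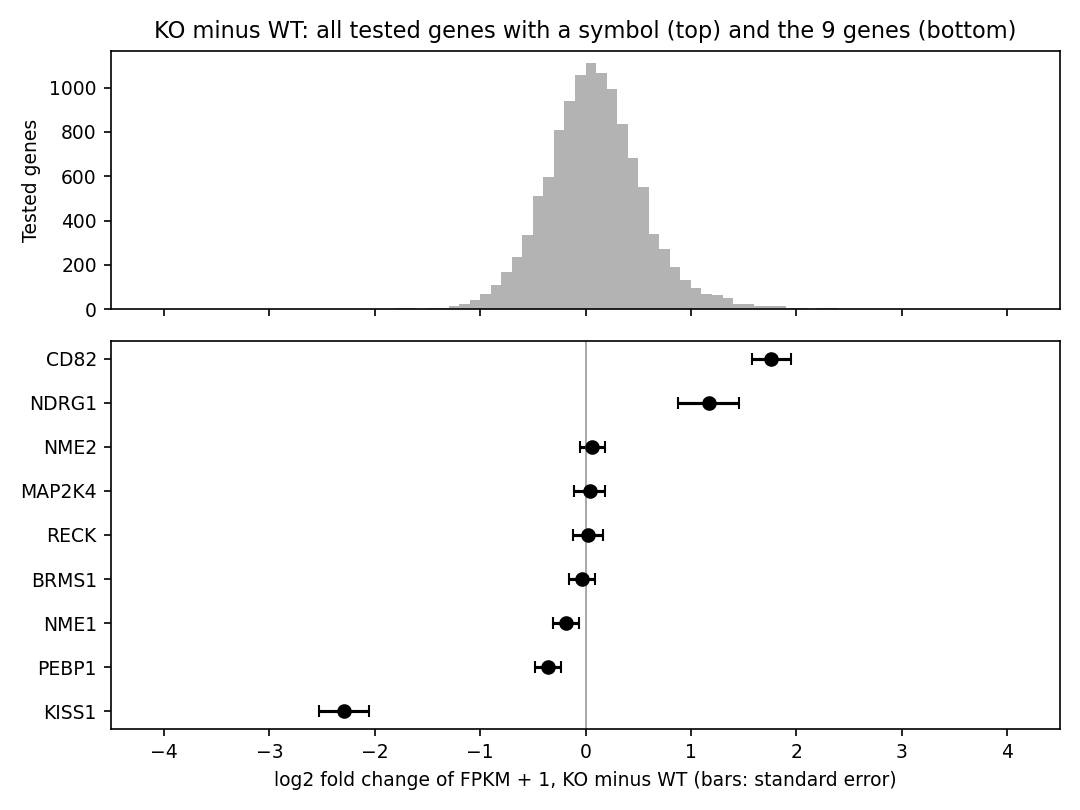
The upper panel counts all tested genes with a symbol by log2 difference (KO minus WT), and the lower panel gives the difference of each of the 9 genes with its standard error. KISS1 (-2.29) lies in the lower tail and CD82 (1.76) and NDRG1 (1.17) in the upper, and the remaining 6 lie between -0.36 and 0.07.

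NDRG1 encodes a cytoplasmic protein that hypoxia and metal chelation induce and MYC proteins repress, and that SGK1 phosphorylates. The gene (identifier 10397) is on chromosome 8 from 133237175 to 133297252. It was at 20.96 and 38.1 FPKM in WT and at 52.2 and 80.4 in KO. The groups did not overlap, but the WT libraries differed by 1.82 times and the KO libraries by 1.54 times, more than for any other of the 9 genes in WT. The mean went from 29.5 ± 12.1 to 66.3 ± 19.9 FPKM (SD, n = 2), 2.24-fold higher in KO. The log2 difference of 1.17 ± 0.29 (SE) ranked 272 from the highest. Without the first WT library it was 0.75 and without the second KO library 0.86, and in both cases NDRG1 no longer lay past the threshold.

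Of 14 listed genes in the NDRG family and among regulators of NDRG1, 12 were tested, and 2 rose and 1 fell. That is 25.0%, near the 27.0% of all tested genes. HIF1A, whose protein is stabilised at low oxygen, went up from 45.4 ± 8.29 to 69.99 ± 8.47 FPKM (0.62, adjusted p 0.0254 in limma), and EPAS1, which encodes a related factor, rose from 3.005 ± 0.64 to 8.46 ± 4.76 FPKM (1.15, adjusted p 0.0340). The mean of MYC fell, from 102.0 ± 0.0495 to 68.5 ± 3.34 FPKM (-0.57, adjusted p 0.0102). VHL, which marks the HIF proteins for breakdown, was at 21.6 ± 2.24 and 25.9 ± 0.76 FPKM and did not pass (0.25, adjusted p 0.188). The call of HIF1A was lost without WT library 2 (adjusted p 0.145) or KO library 1 (0.106), that of EPAS1 without the first WT, second WT or first KO library (0.131, 0.0637 and 0.109) or after quantile normalization (0.0560), and that of MYC without the first or second WT library (0.0635 and 0.0584).

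NME1 (NM23-H1), the first metastasis suppressor to be described, and NME2 (NM23-H2) encode kinases that pass phosphate between nucleoside diphosphates and triphosphates. They neighbour each other on chromosome 17, NME1 (identifier 4830) from 51153559 to 51162168 and NME2 (identifier 4831) from 51165536 to 51171744. NME1 was at 418 and 399 FPKM in WT and at 322 and 401 in KO. NME2 was at 919 and 882 in WT and at 856 and 1038 in KO. They were the most abundant of the 9 genes in every library, and the groups overlapped for both. The log2 differences were -0.18 ± 0.13 for NME1 and 0.07 ± 0.12 for NME2 (SE), the latter turning to -0.04 after scaling by the median of ratios.

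Values of NME1 and NME2 depend on how reads of the copies were split, which was not given in the sources used here. Their coding sequences, of 459 bases each in GENCODE 29, share 371 bases in place (80.8%), and the longest run of identical bases is 23. The first 90 coding bases are shown to let the copies be compared, with the 18 bases that differ in capitals.
NME1: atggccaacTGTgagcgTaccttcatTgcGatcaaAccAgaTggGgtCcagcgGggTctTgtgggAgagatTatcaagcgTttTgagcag
NME2: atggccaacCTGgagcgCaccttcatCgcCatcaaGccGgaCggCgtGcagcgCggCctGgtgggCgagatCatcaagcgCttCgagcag

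A readthrough RNA that joins both genes, NME1-NME2, had its own row. It was at 27.7 and 27.2 FPKM in WT and at 16.2 and 16.1 in KO, a fall of 0.73 on the log2 scale (adjusted p 0.00671 in limma), although its exons are shared with both genes. The ratio of NME2 to NME1 FPKM was 2.20 and 2.21 in the WT libraries and 2.66 and 2.59 in the KO libraries. The ratio was thus nearly level within each group and higher in both KO libraries, where neither gene alone separated the groups.

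Among 13 tested NME relatives and partners 2 rose and 1 fell (23.1% against 27.0% of all tested genes), with a median of 0.08. NME3, a relative with a membrane-binding start, rose from 12.0 ± 1.77 to 25.3 ± 2.80 FPKM (1.01, adjusted p 0.00513 in limma). TREX1, a DNA exonuclease gene of the SET complex, rose from 0.91 ± 0.42 to 2.07 ± 0.11 FPKM (0.70, adjusted p 0.0268). SET, the namesake of that complex, fell from 281 ± 16.6 to 184 ± 3.97 FPKM (-0.60, adjusted p 0.00712), and APEX1, another nuclease gene of it, had 177.5 ± 12.4 FPKM (WT) and 188 ± 2.19 (KO), with a difference of 0.08 (adjusted p 0.592). SET did not pass without the first WT library (adjusted p 0.0606), and TREX1 without the first WT library or either KO library (0.112, 0.104 and 0.0939) or after quantile normalization (0.0661). After scaling by the median of ratios 3 of the 13 fell.

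BRMS1 encodes a subunit of the SIN3 complex, which brings histone deacetylases to genes. The gene (identifier 25855) lies on chromosome 11 from 66337339 to 66345104. It was at 87.4 and 84.06 FPKM in WT and at 90.5 and 77.3 in KO, so that the KO libraries enclosed both WT values. The log2 difference was -0.03 ± 0.12 (SE). None of the 17 other subunits on the list passed in limma at the adjusted threshold (0 higher and 0 lower), where 27.0% of all tested genes did. Of the 17, 3 had an unadjusted p under 0.05. In 10 of the 17 the groups did not overlap, 5 above and 5 below, where 68.0% of all tested genes did not. RBBP7, a histone chaperone gene and the highest of them, was at 109 ± 1.92 FPKM in the WT libraries and 104 ± 6.99 in the KO libraries (-0.07, adjusted p 0.685). The median over the 17 was -0.07. After scaling by the median of ratios 2 of the 17 fell, and 1 fell after quantile normalization or without the first KO library.

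PEBP1 encodes a phosphatidylethanolamine-binding protein that restrains signalling to MEK and ERK. The gene (identifier 5037) lies on chromosome 12 from 118136124 to 118145584. It was at 174 and 185 FPKM in WT and at 152 and 128 in KO. Both KO libraries were below both WT libraries, by less than in KISS1. The mean went from 179 ± 7.57 to 140 ± 17.3 FPKM (SD, n = 2), 1.28-fold lower in KO. The log2 difference of -0.36 ± 0.12 (SE) was not past the threshold. It was past it after scaling by the median of ratios (-0.47) and without the first KO library (-0.48).

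PEBP1 was 1 of 2 genes among the 9 whose longest 3′ untranslated region in GENCODE 29 held a match to the seed of miR-3662, the other being NDRG1. A match is the 7 letters TCATTTT, searched in the sense direction. The match in PEBP1 starts 214 bases into a region of 781 bases, and it is shown with its flanks at chr12:118145006-118145034 on the plus strand (GRCh38), the match in capitals.
PEBP1: aaatttgaactTCATTTTggggggtattt
Such a match was held by 29.6% of 19132 genes. PEBP1 was lower and NDRG1 higher in KO, and KISS1, with a region of 143 bases, and CD82 held none.

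Of 11 tested genes of the RAS, RAF, MEK and ERK cascade and its scaffolds 0 passed in limma, where 27.0% of all tested genes did. Of these 11, 3 had an unadjusted p under 0.05. MAP2K2, which encodes MEK2, was at 152 ± 8.31 and 145 ± 17.8 FPKM (-0.08, adjusted p 0.663). Of 9 tested kinases, repressors and relatives of PEBP1, 2 rose and 1 fell, which is 33.3%. SNAI1, a zinc finger repressor of PEBP1 and of E-cadherin, fell from 5.04 ± 1.11 to 1.64 ± 0.0566 FPKM (-1.18, adjusted p 0.00434). HMGA2, a chromatin protein gene, rose from 22.8 ± 1.47 to 31.0 ± 1.33 FPKM (0.43, adjusted p 0.0415) and BACH1, a heme-binding repressor gene, from 3.44 ± 0.13 to 5.74 ± 1.351 FPKM (0.59, adjusted p 0.0456). Both rises were lost after scaling by the median of ratios (adjusted p 0.1003 for HMGA2 and 0.0682 for BACH1), after quantile normalization (0.0503 and 0.107) and without either WT library or the second KO library (0.0959 to 0.189 for HMGA2 and 0.109 to 0.252 for BACH1), and that of HMGA2 also without the first KO library (0.132).

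MAP2K4 encodes MKK4, the kinase that activates JNK and p38. The gene (identifier 6416) lies on chromosome 17 from 12020877 to 12143828. It was at 18.8 and 15.5 FPKM in WT and at 17.1 and 18.1 in KO, with both KO values between the WT values. The log2 difference was 0.04 ± 0.14 (SE) and turned to -0.07 after scaling. Of 26 tested genes of this cascade 4 rose and 3 fell, which is 26.9% against 27.0% of all tested genes, and the median was 0.03. MAP2K6, another p38 kinase gene, is 1 of the 4, but it passed the filter on low values through the KO libraries alone, so its call supports nothing. It was at 0.11 and 0.25 FPKM in WT and at 1.14 and 1.03 in KO. MAPK11, the gene of p38β, rose from 4.26 ± 0.94 to 9.54 ± 1.66 FPKM (1.00, adjusted p 0.00945 in limma). JUN, a substrate of JNK, fell from 76.2 ± 3.06 to 39.97 ± 3.02 FPKM (-0.92, adjusted p 0.00312), and MAP3K4, which acts above MKK4, fell from 7.50 ± 0.93 to 2.82 ± 0.0566 FPKM (-1.15, adjusted p 0.00337). MAPK14, the gene of p38α, was at 48.4 ± 0.35 and 44.3 ± 2.87 FPKM (-0.13, adjusted p 0.453). MAPK11 did not pass without the first KO library (adjusted p 0.0562). Of these genes 2 or 3 rose, and 2 or 3 fell, as each library was left out (2 rose without the second WT library or either KO library, and 2 fell without either WT library).

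RECK encodes a membrane-anchored inhibitor of the proteases MMP2, MMP9, MMP14 and ADAM10. The gene (identifier 8434) lies on chromosome 9 from 36036913 to 36124455. It was at 4.76 and 5.20 FPKM in WT and at 5.21 and 4.94 in KO, the lowest of the 9 genes in each library and the one with the smallest spread within groups (SD 0.0620 on the log2 scale). The log2 difference was 0.02 ± 0.15 (SE), and it was -0.07 and -0.12 after median of ratios scaling and quantile normalization. MMP2 was at 0.01 FPKM or less in every library. MMP9 was at 0.18 and 0.26 FPKM in WT and at 1.10 and 0.65 in KO, which is below the filter. Of 5 tested targets and partners 0 passed in limma, where 27.0% of all tested genes did. Of these 5, 2 had an unadjusted p under 0.05, and the median was 0.34. TIMP1, a soluble inhibitor of metalloproteases, had 137 and 180 FPKM in the WT libraries and 251 and 187 in the KO libraries (0.46, adjusted p 0.0873). After quantile normalization, and without the second KO library, 1 of the 5 rose.

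The order of the 9 genes by level was partly kept. In WT it ran NME2, NME1, PEBP1, BRMS1, KISS1, NDRG1, CD82, MAP2K4 and RECK. Each was above the next in both libraries, except that NDRG1 and CD82 overlapped. In KO the order was NME2, NME1, PEBP1, CD82, BRMS1, NDRG1, MAP2K4, KISS1 and RECK, with overlaps between CD82 and BRMS1 and between BRMS1 and NDRG1. KISS1 went from place 5 to place 8 and CD82 from place 7 to place 4.

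**Figure D3:**
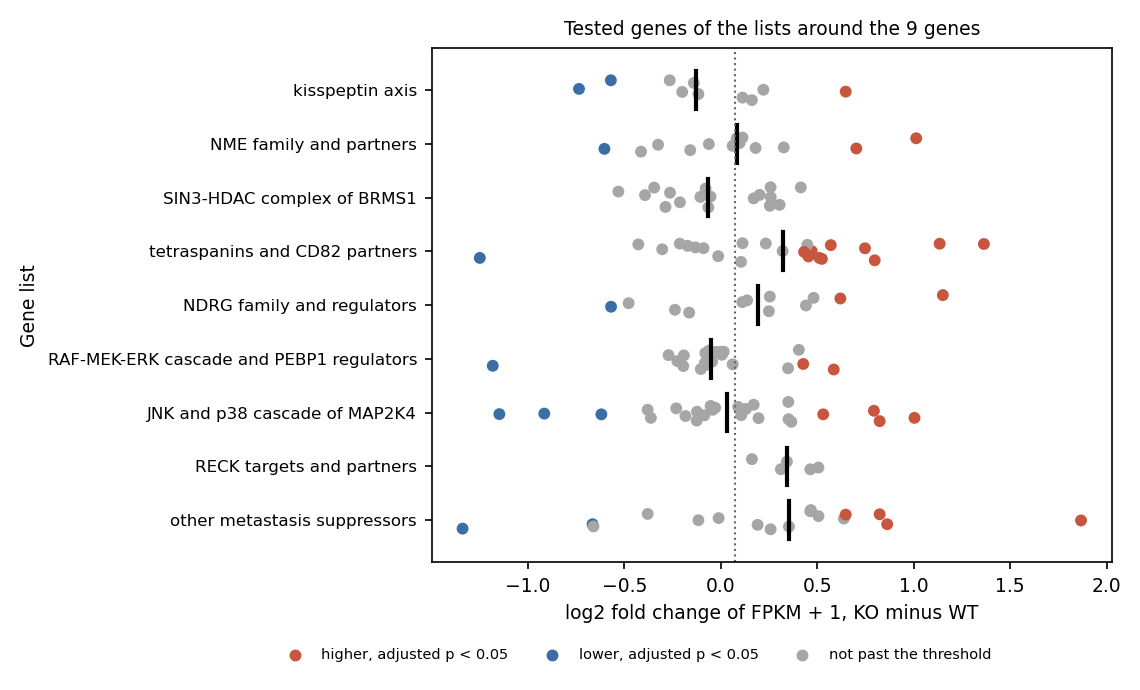
Log2 difference (KO minus WT) of every tested gene of the 9 lists, 1 list a row, coloured by whether it passed in limma, with a black bar at the list's median and a dotted line at the median of all tested genes (0.07). The SIN3-HDAC and RECK rows hold no gene past the threshold, and the tetraspanin row holds 10 higher and 1 lower.

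Other genes that have been reported as metastasis suppressors were split. Of 26 listed 17 were tested, and 4 rose and 2 fell. That is 35.3% against 27.0% of all tested genes, with a median of 0.35 against 0.07. ARRDC3, an arrestin-domain protein that promotes the breakdown of an integrin, rose from 1.53 ± 0.13 to 8.30 ± 1.70 FPKM (1.87, adjusted p 0.00114 in limma). AKAP12, a scaffold of protein kinases A and C, was at 12.3 and 10.8 FPKM in WT and fell to 3.28 and 4.72 in KO (-1.34, adjusted p 0.00355). DLC1, which encodes a GTPase-activating protein, fell from 27.8 ± 2.62 to 17.1 ± 1.21 FPKM (-0.67, adjusted p 0.0127), and did not pass without the first WT or the second KO library (adjusted p 0.0775 and 0.0632). MED23, given above, also rose, and so did CAVIN2 (0.86, adjusted p 0.0205), named after its value was seen. MAP2K6 makes up the 4, although it passed the filter through the KO libraries alone, so the 35.3% counts a call that supports nothing. SERPINB5 was listed at 0 in all 4 libraries and CDH1 was at 0.03 FPKM or less.

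Over all 9 lists, which hold 182 different genes, 134 were tested, and 23 rose and 11 fell. That is 25.4% of them, near the 27.0% of all tested genes. As each library was left out, 9 to 12 of them rose and 7 to 13 fell.

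**Figure D4:**
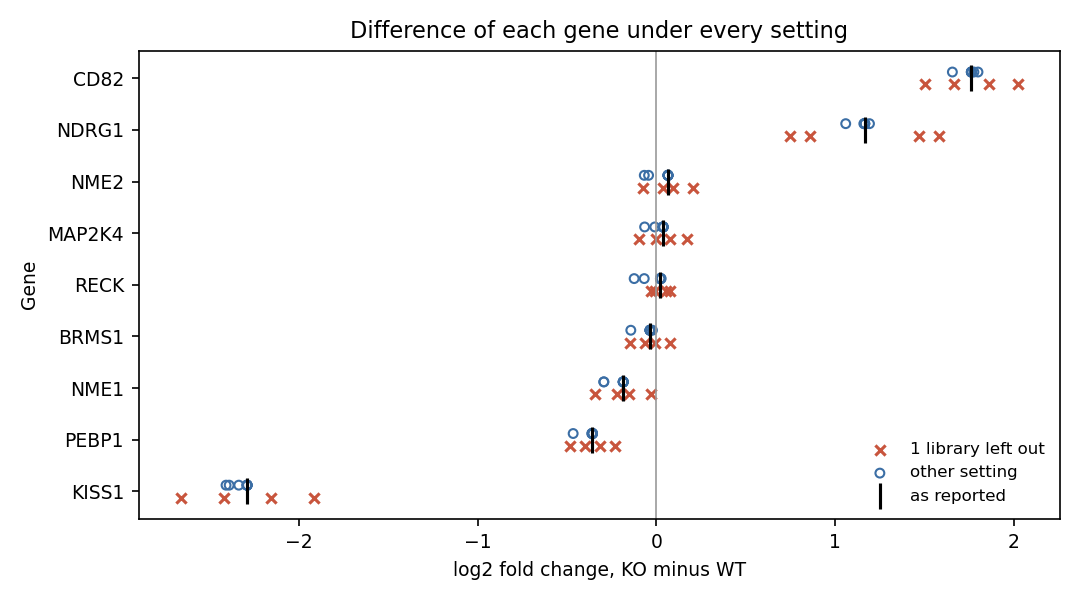
Log2 difference (KO minus WT) of each gene as reported (black bar), with 1 library left out (crosses) and under the other settings (circles). KISS1 stays between -2.66 and -1.92, CD82 between 1.504 and 2.02 and NDRG1 between 0.75 and 1.58, while BRMS1, MAP2K4, NME2 and RECK have values on both sides of 0.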

How the data were processed

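The authors deposited 1 table with an FPKM value per gene and library, to 2 decimals, per the file headers. HISAT, StringTie, Cufflinks, GATK and the build hg38 are named in the submitters' processing notes, without roles or versions. Read counts, depth and filters were not given in the sources used here. Ratios of low values between libraries did not share a step (at best 13 of 124, 17 of 91 and 11 of 99 genes within 3% of 1 ratio), so no relative depth was recovered and no precision from depth can be stated.

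Values were fitted as log2(FPKM + 1) in limma 3.58.1 (R 4.3.3, variance trended on the mean). Genes entered if 2 libraries or more reached 1 FPKM, p-values were adjusted by Benjamini-Hochberg across all of them, and 0.05 was the threshold. The fit was tested on simulated data. Tables used pandas 2.3.3 in Python 3.11.15. Symbols turned into dates (11) were restored from identifiers.

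The members and lists were chosen with earlier results of these data known. Named were the 9 members, in each list the 2 rising and 2 falling genes of smallest p and the most abundant gene that did not pass, the nearest tested gene on each side of a member, and the 3 genes most like KISS1. CD9, CD151, ITGB1, CAVIN2 and genes at or near 0 were added after their values were seen. Alternatives were another pseudocount, filter, scaling or variance model, a replicate block and leaving out each library.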

Additional observations from a re-analysis of the deposited data

How the results depend on the processing

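Without the filter on low values 525 of 19833 genes passed (290 higher and 235 lower), against 3184 of 11786 (1906 and 1278) as reported. Of the 9 members only CD82 then passed, a count of 1, and of the list genes 4 did (2 higher and 2 lower), against 34 as reported. Calls lost in this way included those of NME3, SET, FURIN, HIF1A, MYC, SNAI1, MAP3K4 and AKAP12. The balance of directions depended on scaling, with 59.9% of called genes higher as reported, 43.6% after scaling by the median of ratios (1413 higher and 1828 lower) and 47.0% after quantile normalization. In the lists 18 genes fell after the median of ratios, against 11. Leaving out 1 library gave 1402 to 1902 called genes, 845 to 1183 higher and 509 to 824 lower. In the lists it gave 17 to 23 called, 9 to 12 higher and 7 to 13 lower, and for the members 2 to 4. An arm left with 1 library is assumed to vary like the other arm. The cause of these shifts was not tested, beyond fewer samples where a library is left out.

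The libraries share replicate numbers, but nothing in the labels pairs them. With a replicate block 2864 genes passed (1756 higher and 1108 lower), 31 of them in the lists, 1 gene of the RECK list rose, and the calls of HMGA2, BACH1 and B4GAT1 were lost. Deviations of same-numbered libraries had a weak negative correlation (Pearson's r of -0.18 across 11786 genes), so a crossed pairing was added after seeing the data. Picked from these deviations, it favours more calls, so its counts support nothing. It gave 4170 calls, 51 list genes (34 higher and 17 lower) and 4 members, PEBP1 added. The list genes included 2 higher in the RECK list, 1 lower in the SIN3 list and 9 higher and 4 lower among other suppressors. The log2 differences of KISS1, CD82, NDRG1, PEBP1 and NME1 kept their sign under every setting run. Apart from NME1, the groups of these genes did not overlap, so leaving out 1 library could not reverse the sign. The filter, the variance model and the blocks left the difference of every member unchanged. Of 52 other genes named or covered by the naming rule, compared in 612 gene and setting pairs, 531 stayed on the same side of the threshold, 78 lost a call, 3 gained one and 0 reversed. Depth is unknown, so how precise the low values are cannot be given.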

Other observations

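The nearest tested gene on each side of a member was compared to see whether the members' surroundings differed too. Around KISS1, ETNK2 and PLEKHA6, and around CD82, EXT2 and PRDM11, did not pass in limma (adjusted p 0.989, 0.710, 0.899 and 0.728), with log2 differences of 0.01, -0.09, -0.02 and 0.09. Beside NDRG1 the sialyltransferase gene ST3GAL1 fell from 4.80 ± 0.69 to 2.78 ± 0.46 FPKM (-0.61, adjusted p 0.0321), opposite to NDRG1. ST3GAL1 lost its call whichever of the 4 libraries was left out (adjusted p 0.0539 to 0.155). Beside MAP2K4, ELAC2, which encodes a nuclease that trims transfer RNA, fell from 80.5 ± 0.25 to 48.8 ± 1.74 FPKM (-0.71, adjusted p 0.00533), at a distance of 847784 bases. B4GAT1, a glycosyltransferase gene 270 bases from BRMS1, rose from 22.02 ± 3.81 to 31.98 ± 4.17 FPKM (0.52, adjusted p 0.0483), and lost its call whichever library was left out (0.0512 to 0.238) or after scaling by the median of ratios (0.0955). The other neighbours tested, SPAG9, MBTD1, RIN1, PHF20L1, VSIG10, TAOK3, ZNF18, TMEM8B and GLIPR2, did not pass, with differences from 0.07 (VSIG10) to 0.40 (PHF20L1). Whether counting used the strand was not given in the sources used here.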
